A study of Mus musculus with 32 samples.

Results

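The 9 genes described here are genes that astrocytes of the healthy cortex express strongly: the glutamate transporters Slc1a2 and Slc1a3, the glutamine synthetase Glul, the water channel Aqp4, the gap junction gene Gja1, the bicarbonate transporter Slc4a4, the glycolytic enzyme Aldoc, the lipoprotein Apoe and the secreted matrix protein Sparcl1. They were listed by name for their roles in normal astrocytes, with earlier results of these data already known, and they are 9 of the 33000 genes in the count table. The question was whether these genes differed between GFAP-IL6 and WT mice, and how well 3'Pool-seq measured them as the RNA input was lowered. 3'Pool-seq is a pooled RNA-seq method that counts reads near the 3' ends of transcripts. All 32 libraries came from frontal cortex of C57BL/6 mice aged 3 months. The WT mice carried no transgene and the GFAP-IL6 mice were homozygous for it. The transgene makes the cytokine IL6 from the Gfap promoter, which is active in astrocytes, so its product arises in these cells, and the animals serve as a model of neuroinflammation. Total RNA entered reverse transcription at 50, 10, 1 or 0.5 ng, and each genotype had 4 libraries at each input. The labels do not say whether libraries with the same number came from the same animal, so p-values measure the spread between these libraries, which may be partly technical.

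Astrocytes surround synapses and blood vessels. They take up the glutamate that neurons release, turn it into glutamine and return it, they carry water and ions away from the extracellular space, they are joined to each other by gap junctions, and they supply neurons with lipids and with proteins that shape synapses. In inflammation astrocytes become reactive, with high Gfap, and the genes of their normal housekeeping work are often followed to see whether that work is kept up. Several of the 9 genes are not exclusive to astrocytes: Apoe is also made by microglia, Glul by oligodendrocytes, and Sparcl1 by neurons and vessel cells. In bulk tissue fewer cells of a type and less RNA per cell cannot be told apart.

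Total counts per library ran from 261378 to 9840302, so that 3 counts, taken as the floor of detection, corresponded to between 0.305 and 11.5 CPM. CPM values are counts scaled to the total of each library and are not corrected for gene length. Gfap checked the genotype: at 50 ng it stood at 9.96, 12.04, 14.5 and 8.89 CPM in the WT libraries and at 43.7, 64.4, 74.0 and 30.6 CPM in the GFAP-IL6 libraries. Il6 had 0 or 1 count in each WT library at 50 ng and in GFAP-IL6 replicates 1 to 4 it had 17, 9, 22 and 4. Scaled to depth, these 4 libraries stood at 4.92, 8.40, 5.07 and 0.717 CPM. At 10 ng Il6 had 2, 0, 3 and 0 counts in WT replicates 1 to 4 and 41, 2, 27 and 20 in GFAP-IL6. These counts overlapped, while in CPM the highest WT library was at 0.758 and the lowest GFAP-IL6 library at 1.88. Both values lay at or under the floor of 3 counts, which was 0.758 CPM in WT replicate 3 and 2.82 CPM in GFAP-IL6 replicate 2. This gap in Il6 at 10 ng therefore does not separate the genotypes. Gfap lay at 10 ng between 6.77 and 9.87 CPM in WT and between 25.5 and 68.2 CPM in GFAP-IL6. The check did not separate the libraries at the lower inputs. At 1 ng Gfap spanned 8.18 to 22.5 CPM in the libraries labelled WT and 11.8 to 76.5 CPM in those labelled GFAP-IL6, and at 0.5 ng 2.17 to 30.8 and 9.61 to 62.4 CPM. The library labelled WT replicate 3 at 1 ng held 13 counts of Il6, while GFAP-IL6 replicates 2 and 3 at 1 ng and all 8 libraries at 0.5 ng held 0. As far as Gfap and Il6 go, directions at 1 and 0.5 ng therefore rest on the labels. The summed levels of 11 microglia markers, a list chosen with earlier results known, did not overlap between the labelled genotypes at these inputs. At 1 ng they lay between 576 and 813 CPM in WT and between 1275 and 1964 CPM in GFAP-IL6. At 0.5 ng they lay between 618 and 860 CPM in WT and between 1487 and 2183 CPM in GFAP-IL6. Markers of cortical excitatory neurons, 6 genes, summed to between 4291 and 5143 CPM at 50 ng, and 5 markers of striatum to between 155 and 247 CPM in WT and between 102 and 156 CPM in GFAP-IL6, a ratio of means of 0.644. That ratio was 0.727, 0.679 and 0.712 at 10, 1 and 0.5 ng. None of the striatum markers tested was called, and their part in the values of the 9 genes was not tested. In WT replicate 3, markers of choroid plexus, the tissue that makes cerebrospinal fluid, summed to 3385 CPM at 50 ng, and to 3019, 3099 and 3123 CPM at 10, 1 and 0.5 ng, against 54.4 to 113 CPM in the other WT libraries at 50 ng.

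GFAP-IL6 replicate 4 stood apart from the other libraries and touches most of the values below. At 50 ng its genes deviated from the mean of the other 3 GFAP-IL6 libraries in step with gene length: over 8668 genes the correlation of the deviation with log2 length was 0.668, while the 1734 shortest genes had a median deviation of -0.69 on the log2 scale and the 1734 longest a median of 0.61. The correlation was 0.517, 0.182 and 0.097 at the inputs of 10, 1 and 0.5 ng. In the WT libraries at 50 ng the same correlation lay between -0.17 and 0.14. These correlations run across genes, and genes are no independent replicates. The genotype difference of each of the 9 genes at 50 and 10 ng is given with and without it.

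Because the method primes reverse transcription on the poly(A) tail and keeps the cDNA fragments next to it, its reads come from the stretch upstream of the transcript end. For that reason 6 of the 9 genes are shown here by the last 30 bases of their annotated main transcript (GRCm38, GENCODE M21, 5' to 3' on the transcript strand). GFAP-IL6 replicate 4 lay above the other libraries of its genotype for the first 3 and below them for the last 3 at 50 ng. It also lay above them for Slc4a4 and below them for Gja1, which are not shown. Capitals mark AATAAA, the usual polyadenylation signal.
Slc1a2, chr2:102790755-102790784, plus strand: atcAATAAAtgtagattgcaatttctcttt
Slc1a3, chr15:8634124-8634153, minus strand: ttcAATAAAgaaaaaatagttttacattaa
Glul, chr1:153909694-153909723, plus strand: caaaaaaaaaaaaaaaacctcaaaaattaa
Aldoc, chr11:78327752-78327781, plus strand: taatcacatagtagccaaccatgctaaaaa
Apoe, chr7:19696272-19696301, minus strand: ggcccttgcttAATAAAgattctccgagca
Sparcl1, chr5:104079111-104079140, minus strand: gatgtcctAATAAAaaatctataaaacctc
All 6 windows lie in the last exon of their gene. Glul and Aldoc showed no AATAAA in this window, and the Glul end holds a run of 16 A bases in the genome. The ends of Slc4a4 and Gja1, not shown, hold AATAAA in the same window. No other annotated gene overlaps the last 1000 bases of any of the 9 genes. Gm13872, antisense to Slc1a2, had 0 CPM over the 16 libraries of 50 and 10 ng, and Gm26703, antisense to Sparcl1, had a mean of 0.304 CPM.

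None of the 9 genes passed the test for a genotype difference at any input. The test was edgeR's quasi-likelihood test over all genes with Benjamini-Hochberg adjustment, called at an adjusted p under 0.05. At 50 ng 0 of 9 were called, against 0.28% of the 11773 genes tested, and at 10 ng 0 of 9 against 0.332% of 12043. At 1 ng 0 of 9 were called against 0.0431% of 9276 genes, and at 0.5 ng 0 of 9 against 0.0117% of 8571. With so few calls anywhere, a count of 0 among 9 lies at the background. At an unadjusted p under 0.05, 2 of 9 passed at 50 ng (Slc1a2 and Glul), 2 at 10 ng (Slc1a2 and Slc1a3), 1 at 1 ng (Apoe) and 1 at 0.5 ng (Slc1a3), where 5.63, 7.49, 3.59 and 2.87% of all tested genes did. DESeq2's Wald test also called 0 of 9 at each input. The median log2 fold change of the 9 genes, GFAP-IL6 against WT, was 0.28 at 50 ng and 0.28 at 10 ng, beside a median of -0.0034 and 0.0035 over all tested genes. Leaving out GFAP-IL6 replicate 4 brought it to 0.12 and 0.19. The plot of CPM by library shows each value behind these figures.

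**Figure D1:**
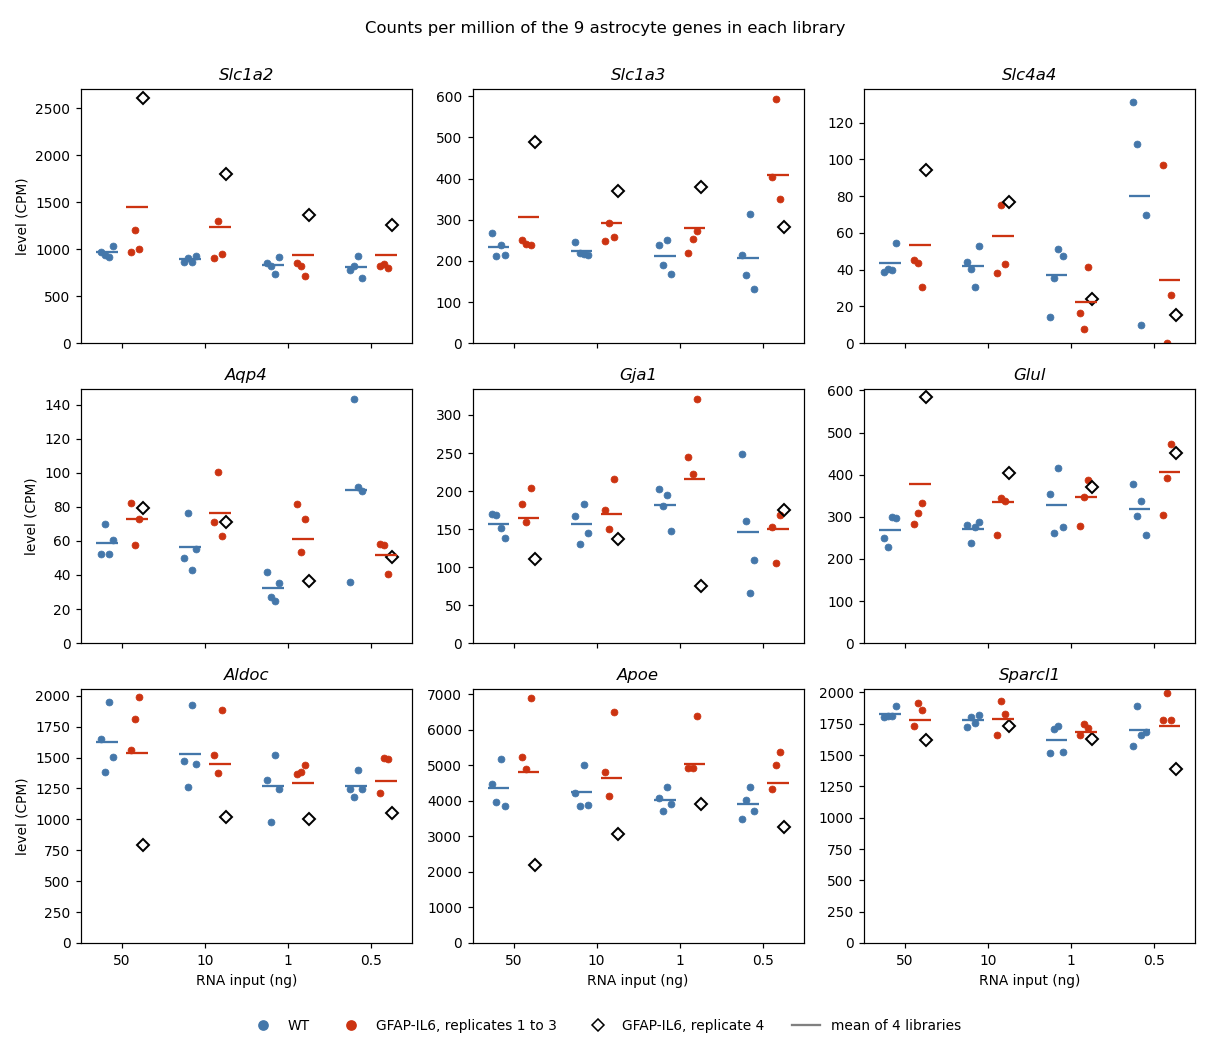
Level of each of the 9 genes in CPM (vertical axis, from 0) in all 32 libraries by RNA input in ng, for WT (blue) and GFAP-IL6 (red), with bars at the mean of 4 libraries. GFAP-IL6 replicate 4, drawn as an open diamond, is the highest library for Slc1a2 at 50 ng (2602 CPM) and the lowest for Apoe (2181 CPM).

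**Figure D2:**
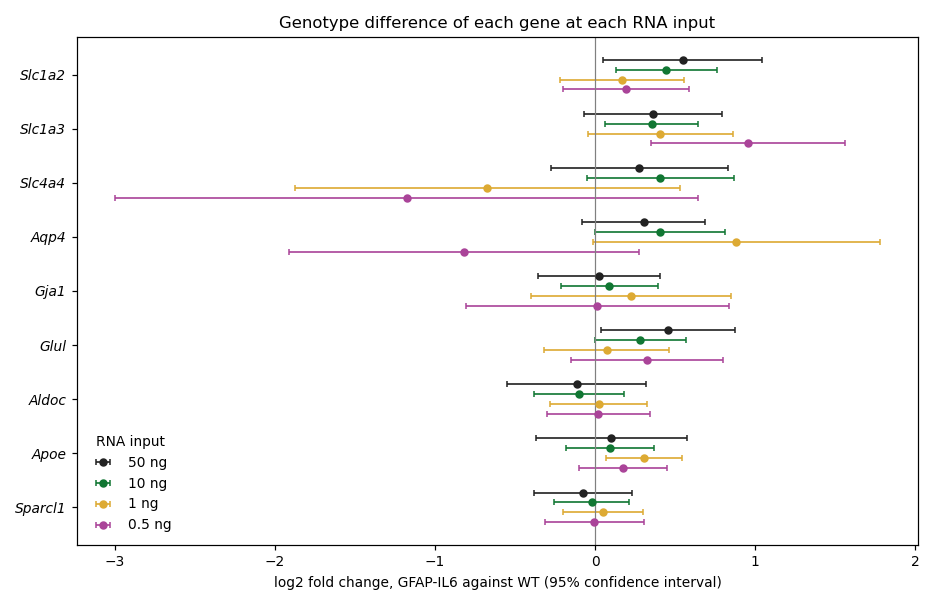
Log2 fold change of GFAP-IL6 against WT for each gene at each RNA input, with 95% confidence intervals from edgeR on 4 against 4 libraries. The intervals are wide for Slc4a4 at 0.5 ng (-3.00 to 0.64) and narrow for Sparcl1 at 10 ng (-0.26 to 0.21).

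Slc1a2 encodes the main transporter that clears glutamate from the synapse. At 50 ng it stood at 975, 943, 913 and 1031 CPM in WT replicates 1 to 4 and at 965, 1202, 1005 and 2602 CPM in GFAP-IL6 replicates 1 to 4. The WT libraries lay close together, and the GFAP-IL6 mean was carried by replicate 4. The means were 965 ± 50.7 CPM (SD, n = 4) in WT and 1443 ± 779 CPM (SD, n = 4) in GFAP-IL6. The log2 fold change was 0.55 (SE 0.24, 95% confidence interval 0.051 to 1.04, adjusted p = 0.835). Without GFAP-IL6 replicate 4 it was 0.11 (SE 0.10, adjusted p = 0.985). At 10 ng the WT libraries gave 867, 905, 867 and 928 CPM and the GFAP-IL6 libraries 902, 1297, 947 and 1802 CPM. Replicates 2, 3 and 4 lay above every WT library and replicate 1 did not. The log2 fold change at 10 ng was 0.45 (SE 0.16, 95% confidence interval 0.13 to 0.76, adjusted p = 0.440), and 0.20 (SE 0.13, adjusted p = 0.976) without replicate 4. At 1 ng the groups spanned 741 to 922 CPM in WT and 717 to 1362 CPM in GFAP-IL6, and at 0.5 ng 699 to 927 and 801 to 1260.3 CPM. The highest GFAP-IL6 library was replicate 4 at all 4 inputs.

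Slc1a3 encodes another glutamate transporter of astrocytes. With 50 ng of RNA it stood at 267, 213, 239 and 214 CPM in WT and at 251, 242, 239.8 and 489.6 CPM in GFAP-IL6. Replicates 1 to 3 of GFAP-IL6 lay within the WT range and replicate 4 well above it. Its fitted log2 fold change was 0.36 (SE 0.21, 95% confidence interval -0.071 to 0.79, adjusted p = 0.835), and 0.045 (SE 0.10, adjusted p = 0.996) without replicate 4. At 10 ng the values were 247, 219.9, 216 and 214 CPM in WT and 248, 291, 258 and 369.5 CPM in GFAP-IL6. Here all 4 GFAP-IL6 libraries lay above all 4 WT libraries, the nearest pair being 247 and 248 CPM. A two-sided exact permutation test on log2(CPM + 1) gave p = 0.0286, the smallest that 4 against 4 libraries allow, in 1 of 36 such tests on the 9 genes. This was the single case among the 36 in which the groups did not overlap, that is 1 of 9 genes at 10 ng, where 4.1% of all tested genes did not overlap. The corresponding counts were 0 of 9 at 50 ng against 3.33% of all genes, 0 of 9 at 1 ng against 3.07%, and 0 of 9 at 0.5 ng against 2.81%. The fitted log2 fold change at 10 ng was 0.35 (SE 0.14, 95% confidence interval 0.06 to 0.64, adjusted p = 0.562), and 0.21 (SE 0.13, adjusted p = 0.976) without replicate 4.

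At 0.5 ng Slc1a3 stood at 215, 167, 313 and 131 CPM in WT and at 404, 593, 351 and 282 CPM in GFAP-IL6. 3 of the 4 GFAP-IL6 libraries were above every WT library, and here replicate 4 was the lowest of its group. This was a log2 fold change of 0.95 (SE 0.29, 95% confidence interval 0.35 to 1.56, adjusted p = 0.9999). In a single fit of all 32 libraries, which shares the spread between inputs, it was 0.94 and the gene was called (adjusted p = 0.0183), as were 5.38% of 12164 genes. With voom weights per group, which let the spread differ by input, it was 0.84 (SE 0.45, adjusted p = 0.866), and 0 genes were called, while 712 of 12164 had an unadjusted p under 0.05, none of the 9 among them. Without the library labelled GFAP-IL6 replicate 1, the one with low Gfap, the 0.5 ng fit gave 0.93 (SE 0.32, adjusted p = 0.9999). At 1 ng the log2 fold change was 0.41 (SE 0.22, 95% confidence interval -0.045 to 0.86, adjusted p = 0.997). The estimates of Slc1a3 were above 0 at all 4 inputs and in every fit that left out a library.

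Glul encodes glutamine synthetase, which turns the glutamate taken up into glutamine. At 50 ng it stood at 250.2, 229, 299 and 298 CPM in WT and at 282, 309, 334 and 585 CPM in GFAP-IL6. The means were 269 ± 35.3 CPM (SD, n = 4) in WT and 377 ± 139.9 CPM (SD, n = 4) in GFAP-IL6. 3 of the 4 GFAP-IL6 libraries lay above every WT library, with replicate 4 far above the rest. The log2 fold change was 0.46 (SE 0.20, 95% confidence interval 0.038 to 0.87, adjusted p = 0.835), and 0.17 (SE 0.11, adjusted p = 0.964) without replicate 4. With 10 ng the values were 281, 238, 277 and 287 CPM in WT and 257, 346, 336 and 405 CPM in GFAP-IL6. Again 3 of 4 lay above every WT library, and replicate 1 lay within the WT range. The log2 fold change at 10 ng was 0.28 (SE 0.14, 95% confidence interval -0.0044 to 0.56, adjusted p = 0.671), and 0.16 (SE 0.13, adjusted p = 0.976) without replicate 4. The 1 ng libraries gave 0.071 (SE 0.19, 95% confidence interval -0.32 to 0.46, adjusted p = 0.997) and the 0.5 ng libraries 0.32 (SE 0.23, 95% confidence interval -0.15 to 0.80, adjusted p = 0.9999).

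Aqp4 encodes the water channel of astrocyte endfeet on blood vessels. It was among the lower of the 9 genes in CPM, with 62 to 457 counts per library at 50 ng. With 50 ng of RNA it stood at 52.03, 69.96, 52.3 and 60.6 CPM in WT and at 82.3, 57.8, 73.1 and 79.2 CPM in GFAP-IL6. 3 of the 4 GFAP-IL6 libraries exceeded every WT library, and replicate 4 was one of them without standing out. Its fitted log2 fold change was 0.30 (SE 0.18, 95% confidence interval -0.08 to 0.69, adjusted p = 0.835), and 0.31 (SE 0.15, adjusted p = 0.835) without replicate 4, so that this estimate did not hang on that library. The values at 10 ng were 50.2, 76.6, 42.7 and 55.00 CPM in WT and 70.9, 101, 62.7 and 70.8 CPM in GFAP-IL6, and the log2 fold change was 0.40 (SE 0.20, 95% confidence interval -0.002 to 0.81, adjusted p = 0.670), or 0.43 (SE 0.21, adjusted p = 0.933) without replicate 4. WT replicate 2 was the highest WT library at both inputs.

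Aqp4 estimates lay on opposite sides of 0 at the lower inputs. At 1 ng it stood at 41.9, 27.3, 24.9 and 35.6 CPM in WT and at 81.4, 53.6, 73.02 and 36.4 CPM in GFAP-IL6, a log2 fold change of 0.88 (SE 0.43, 95% confidence interval -0.016 to 1.78, adjusted p = 0.997). At 0.5 ng it stood at 35.8, 143, 91.8 and 89.3 CPM in WT and at 58.3, 57.6, 40.8 and 50.3 CPM in GFAP-IL6, a log2 fold change of -0.82 (SE 0.52, 95% confidence interval -1.91 to 0.27, adjusted p = 0.9999). The WT libraries at 0.5 ng were spread over a 4.00-fold range, and all GFAP-IL6 values lay inside that range. The difference between the genotype effect at 0.5 ng and at 50 ng was -1.12 (SE 0.47, 95% confidence interval -2.07 to -0.18, adjusted p = 0.318), which did not pass the test.

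Gja1 encodes the main connexin of astrocyte gap junctions. At 50 ng it stood at 170.2, 168, 151 and 138 CPM in WT and at 183, 159.5, 204 and 110.4 CPM in GFAP-IL6. Replicate 4 was the lowest library of all and replicates 1 and 3 the highest, so the groups overlapped throughout. This was a log2 fold change of 0.025 (SE 0.18, 95% confidence interval -0.36 to 0.41, adjusted p = 0.984), and 0.21 (SE 0.11, adjusted p = 0.890) without replicate 4. At 10 ng the values were 167, 130.1, 183 and 145 CPM in WT and 175, 150.3, 216 and 137 CPM in GFAP-IL6, with a log2 fold change of 0.088 (SE 0.15, 95% confidence interval -0.22 to 0.39, adjusted p = 0.912), or 0.18 (SE 0.14, adjusted p = 0.976) without replicate 4. At 1 ng the WT libraries spanned 148 to 203 CPM and the GFAP-IL6 libraries 74.6 to 321 CPM, with replicate 4 again the lowest.

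Slc4a4 encodes the sodium bicarbonate cotransporter with which astrocytes regulate extracellular pH. It had the fewest counts of the 9 genes, 47 to 526 per library at 50 ng. With 50 ng of RNA it stood at 38.7, 40.6, 40.1 and 54.4 CPM in WT and at 45.2, 43.8, 30.4 and 94.3 CPM in GFAP-IL6. GFAP-IL6 replicate 4 was the highest library and replicate 3 the lowest. The log2 fold change was 0.28 (SE 0.27, 95% confidence interval -0.28 to 0.83, adjusted p = 0.844), and without replicate 4 its sign turned, to -0.20 (SE 0.18, adjusted p = 0.985). With 10 ng the values were 44.4, 40.3, 30.6 and 53.1 CPM in WT and 38.1, 75.2, 43.03 and 76.9 CPM in GFAP-IL6, with a log2 fold change of 0.41 (SE 0.23, 95% confidence interval -0.053 to 0.87, adjusted p = 0.708), or 0.19 (SE 0.24, adjusted p = 0.982) without replicate 4. At 1 ng between 2 and 116 counts stood behind each value and at 0.5 ng between 0 and 184. GFAP-IL6 replicate 2 at 0.5 ng had 0 counts, which allows up to 10.2 CPM at its depth. Its fitted log2 fold change was -0.67 (SE 0.58, 95% confidence interval -1.88 to 0.53, adjusted p = 0.997) at 1 ng and -1.18 (SE 0.87, 95% confidence interval -3.00 to 0.64, adjusted p = 0.9999) at 0.5 ng, and a difference was not detectable at this depth. Leaving out the library labelled GFAP-IL6 replicate 1, with low Gfap, gave -2.45 (SE 0.94, adjusted p = 0.9999) at 0.5 ng.

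Aldoc encodes aldolase C, the brain form of a glycolytic enzyme that marks astrocytes. At 50 ng it stood at 1650.2, 1385, 1948 and 1508 CPM in WT and at 1557, 1812, 1993 and 789 CPM in GFAP-IL6. The lowest library was GFAP-IL6 replicate 4 and the highest GFAP-IL6 replicate 3, so the WT libraries lay in between. This was a log2 fold change of -0.11 (SE 0.21, 95% confidence interval -0.55 to 0.32, adjusted p = 0.917), and without replicate 4 its sign turned, to 0.12 (SE 0.099, adjusted p = 0.981). The values at 10 ng were 1475, 1258, 1923 and 1447 CPM in WT and 1523, 1376, 1886 and 1019.9 CPM in GFAP-IL6, with a log2 fold change of -0.10 (SE 0.14, 95% confidence interval -0.38 to 0.18, adjusted p = 0.887), or 0.034 (SE 0.12, adjusted p = 0.994) without replicate 4. WT replicate 3 was the highest WT library at all 4 inputs, for Aldoc and for Apoe. These are the libraries with the choroid plexus markers, whose part in these values was not tested. GFAP-IL6 replicate 3 was likewise the highest of its genotype for Apoe at all 4 inputs and for Aldoc at 50, 10 and 1 ng. Its choroid plexus markers summed to 142, 118, 84.7 and 66.3 CPM at 50, 10, 1 and 0.5 ng.

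Apoe encodes the main lipid carrier of the brain and had the most counts of the 9 genes. With 50 ng of RNA it stood at 4465, 3977, 5176 and 3840.4 CPM in WT and at 5236, 4896, 6904 and 2181 CPM in GFAP-IL6. Replicate 3 was the highest GFAP-IL6 library at all 4 inputs and replicate 4 the lowest. The means were 4365 ± 604 CPM (SD, n = 4) in WT and 4804 ± 1957 CPM (SD, n = 4) in GFAP-IL6. The log2 fold change was 0.10 (SE 0.23, 95% confidence interval -0.37 to 0.57, adjusted p = 0.934), and 0.36 (SE 0.098, adjusted p = 0.134) without replicate 4. At 10 ng the values were 4209, 3858, 5014 and 3891 CPM in WT and 4809, 4147, 6486 and 3072 CPM in GFAP-IL6, with a log2 fold change of 0.092 (SE 0.14, 95% confidence interval -0.19 to 0.37, adjusted p = 0.898), or 0.24 (SE 0.11, adjusted p = 0.909) without replicate 4. At 1 ng the values were 4079, 3717, 4399.7 and 3919 CPM in WT and 4923, 4916, 6377 and 3919 CPM in GFAP-IL6, where 3 of 4 lay above every WT library and the log2 fold change was 0.31 (SE 0.11, 95% confidence interval 0.069 to 0.54, adjusted p = 0.997). At 0.5 ng the log2 fold change was 0.17 (SE 0.13, 95% confidence interval -0.10 to 0.45, adjusted p = 0.9999).

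Microglia, which also make Apoe, were measured by 11 marker genes. Their summed level at 50 ng was between 734 and 835 CPM in WT and 1699, 1476, 1989 and 905 CPM in GFAP-IL6 replicates 1 to 4, a ratio of means of 1.97. Of the 11 markers, 3 were called higher in GFAP-IL6 at 50 ng (C1qb, C1qc and Ctss) and 5 at 10 ng, these 3 with Aif1 and Trem2. The order of the GFAP-IL6 libraries by microglia level at 50 ng, with replicate 3 highest and replicate 4 lowest, was also the order at its ends for Apoe. The same ends were seen for Aldoc and Gja1. They were also seen for markers of oligodendrocytes, interneurons, endothelium, erythrocytes and reactive astrocytes, and not for the remaining marker lists. Over the 4 libraries this is a description, and the part of microglia in the Apoe values was not tested.

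Sparcl1 encodes a secreted protein that promotes the formation of excitatory synapses. At 50 ng it stood at 1804, 1811, 1809 and 1890.2 CPM in WT and at 1729.8, 1920.0, 1857 and 1621 CPM in GFAP-IL6. With 10 ng the values were 1727, 1807, 1758 and 1817 CPM in WT and 1658, 1930.5, 1829 and 1734 CPM in GFAP-IL6. The libraries lay close together and the genotypes overlapped. Its fitted log2 fold change was -0.076 (SE 0.15, 95% confidence interval -0.38 to 0.23, adjusted p = 0.923) at 50 ng and -0.023 (SE 0.11, 95% confidence interval -0.26 to 0.21, adjusted p = 0.972) at 10 ng. The second interval leaves out fold changes above 1.16 and below 0.837. Leaving out GFAP-IL6 replicate 4 gave -0.015 (SE 0.088, adjusted p = 0.996) at 50 ng and -0.012 (SE 0.11, adjusted p = 0.997) at 10 ng. The 1 ng libraries gave 0.047 (SE 0.12, 95% confidence interval -0.20 to 0.30, adjusted p = 0.997) and the 0.5 ng libraries -0.0051 (SE 0.15, 95% confidence interval -0.31 to 0.30, adjusted p = 0.9999).

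**Figure D3:**
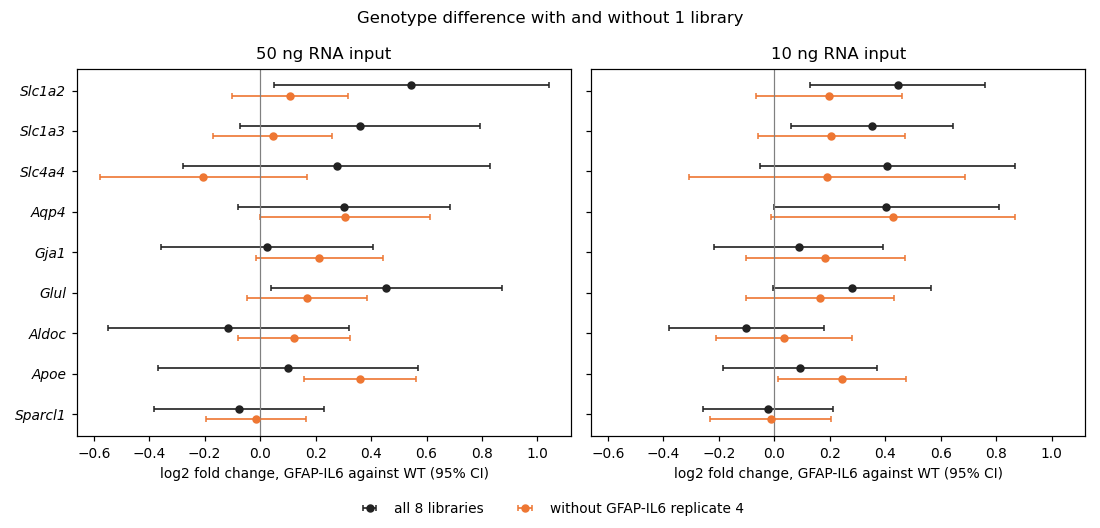
Log2 fold change of GFAP-IL6 against WT at 50 and 10 ng with all 8 libraries (black) and without GFAP-IL6 replicate 4 (orange), with 95% confidence intervals from edgeR. At 50 ng Slc1a2 moves from 0.55 to 0.11 and Apoe from 0.10 to 0.36, while Aqp4 stays at 0.30 and 0.31.

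The place of GFAP-IL6 replicate 4 differed by gene. At 50 ng its log2(CPM + 1) minus the mean of the other 3 GFAP-IL6 libraries was 1.31 for Slc1a2 and 1.24 for Slc4a4, whose gene lengths in the count table are 12092 and 10263 bases. It was 1.001 for Slc1a3 (4404 bases) and 0.17 for Aqp4 (5082 bases). It was -1.36 for Apoe, the shortest of the 9 at 1816 bases. Length did not order the genes in between: Glul (2792 bases) was at 0.93, Sparcl1 (2759 bases) at -0.18, Aldoc (2976 bases) at -1.17 and Gja1 (3105 bases) at -0.71. At 10 ng the same genes lay on the same sides except Aqp4, which was at -0.11, and each deviation was smaller. In fits that took out the length trend of each library, an alternative chosen after seeing the data, the log2 fold change at 50 ng was 0.25 for Slc1a2, 0.25 for Slc1a3, 0.53 for Glul, 0.21 for Aqp4 and 0.18 for Apoe. None was called.

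**Figure D4:**
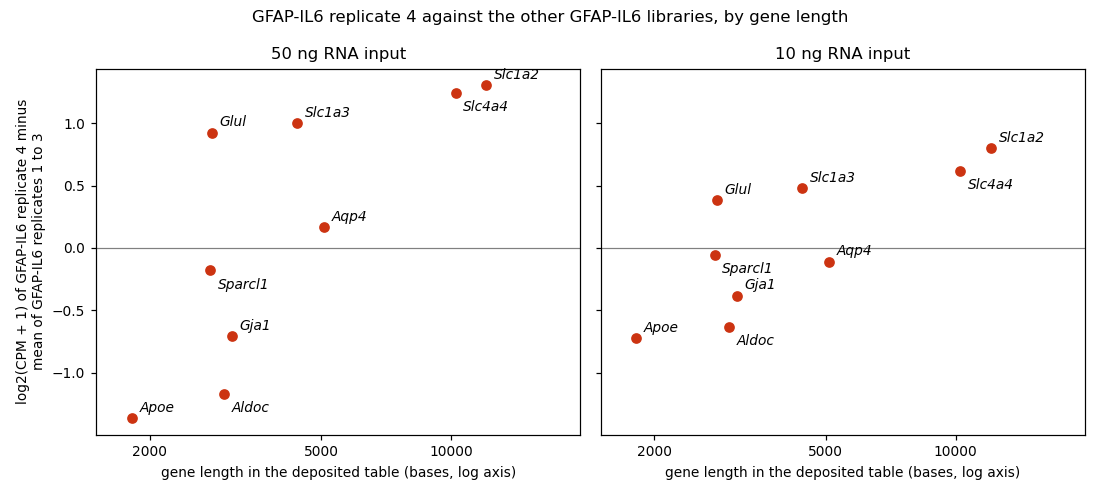
Difference in log2(CPM + 1) between GFAP-IL6 replicate 4 and the mean of GFAP-IL6 replicates 1 to 3 (vertical axis) against gene length in bases (log axis) for the 9 genes at 50 and 10 ng. Slc1a2 and Slc4a4 are at 1.31 and 1.24 at 50 ng and Apoe at -1.36, while Glul, Sparcl1 and Aldoc, of like length, are at 0.93, -0.18 and -1.17.

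Taking 50 and 10 ng in a single fit of 16 libraries gave tighter estimates, with the caution that libraries of the same number may share RNA, in which case these p-values are too small. None of the 9 genes was called, where 1.03% of 12599 genes were, and 4 passed at an unadjusted p under 0.05 (Slc1a2, Slc1a3, Glul and Aqp4), as did 13.2% of all genes. The log2 fold changes were 0.49 (SE 0.16, adjusted p = 0.158) for Slc1a2, 0.36 (SE 0.12, adjusted p = 0.197) for Glul, 0.35 (SE 0.13, adjusted p = 0.226) for Slc1a3 and 0.35 (SE 0.14, adjusted p = 0.278) for Aqp4. Without both libraries of replicate 4 these came to 0.15 (SE 0.083, adjusted p = 0.680), 0.16 (SE 0.083, adjusted p = 0.621), 0.12 (SE 0.08, adjusted p = 0.743) and 0.36 (SE 0.14, adjusted p = 0.416), and Apoe, at 0.10 (SE 0.15, adjusted p = 0.790) with all libraries, came to 0.30 (SE 0.078, adjusted p = 0.0586).

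The genotype effects did not pass a test of difference between inputs for any of the 9 genes. Against 50 ng, 0 of 9 were called at 10 ng, where 0% of 12164 genes were, 0 of 9 at 1 ng (0% of all genes) and 0 of 9 at 0.5 ng (0.197%). At an unadjusted p under 0.05 the counts were 0, 0 and 1, the last being Aqp4, beside 0.00822, 2.74 and 10.8% of all genes, and DESeq2 also called 0 at each input. The largest estimates were those of Slc4a4 and Aqp4, with -1.43 (SE 0.82, 95% confidence interval -3.08 to 0.22, adjusted p = 0.562) for Slc4a4 at 0.5 ng, the -1.12 of Aqp4 at 0.5 ng given above, and -0.94 (SE 0.83, 95% confidence interval -2.62 to 0.74, adjusted p = 0.9999) for Slc4a4 at 1 ng. For Sparcl1 the difference at 0.5 ng was 0.039 (SE 0.15, 95% confidence interval -0.27 to 0.35, adjusted p = 0.984).

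In the fit that left the replicate numbers out, none of the 9 genes passed the test for an effect of the RNA input. With both genotypes together, 0 of 9 were called at 10 against 50 ng, where 0% of all genes were, 0 of 9 at 1 ng (0.822%) and 0 of 9 at 0.5 ng (6.72%). At an unadjusted p under 0.05 the counts were 0, 3 and 1, beside 0.534, 8.24 and 20% of all genes, and DESeq2 called 0 at each. In a fit with a block on genotype and replicate number, 0 of 9 were called at 10 ng (0.0493% of all genes). There 1 of 9, Slc1a2, was called at 1 ng (1.36%) and at 0.5 ng (8.7%). The labels do not say that libraries of equal number share RNA. Slc1a2 had a mean over 8 libraries of 1204, 1064, 885 and 870.2 CPM at 50, 10, 1 and 0.5 ng. Without the block its log2 change was -0.37 (SE 0.16, 95% confidence interval -0.70 to -0.04, adjusted p = 0.484) at 1 ng and -0.39 (SE 0.16, 95% confidence interval -0.72 to -0.057, adjusted p = 0.160) at 0.5 ng. Without GFAP-IL6 replicate 4 at all 4 inputs these were -0.27 (SE 0.099, adjusted p = 0.317) and -0.27 (SE 0.099, adjusted p = 0.0921). Aldoc averaged 1580.2 CPM at 50 ng and 1289 at 0.5 ng, a log2 change of -0.23 (SE 0.12, 95% confidence interval -0.48 to 0.021, adjusted p = 0.303). Without GFAP-IL6 replicate 4 at all 4 inputs the change of Aldoc was -0.32 and was called (adjusted p = 0.0268). Apoe and Sparcl1 kept levels near those at 50 ng, with log2 changes at 0.5 ng of -0.065 (SE 0.13, 95% confidence interval -0.32 to 0.20, adjusted p = 0.841) and -0.012 (SE 0.077, 95% confidence interval -0.17 to 0.14, adjusted p = 0.954).

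The spread between libraries of a genotype differed by gene and by input. At 50 ng the within-genotype SD of log2(CPM + 1) had a median of 0.37 over the 9 genes and of 0.30 over the 8692 genes with at least 10 CPM, and without GFAP-IL6 replicate 4 these were 0.17 and 0.22. At 0.5 ng the medians were 0.26 for the 9 genes and 1.095 for all genes. Sparcl1 was the steadiest, with SDs of 0.080, 0.071, 0.080 and 0.17 from the highest to the lowest input. Slc4a4 was the least steady at the lower inputs, with an SD of 0.89 at 1 ng and 2.29 at 0.5 ng, where a library had no count. Gja1 and Aqp4 were in between, at 0.61 and 0.61 at 0.5 ng. The genes of the set differ in CPM from those of the whole table, and a comparison at matched level was not made.

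**Figure D5:**
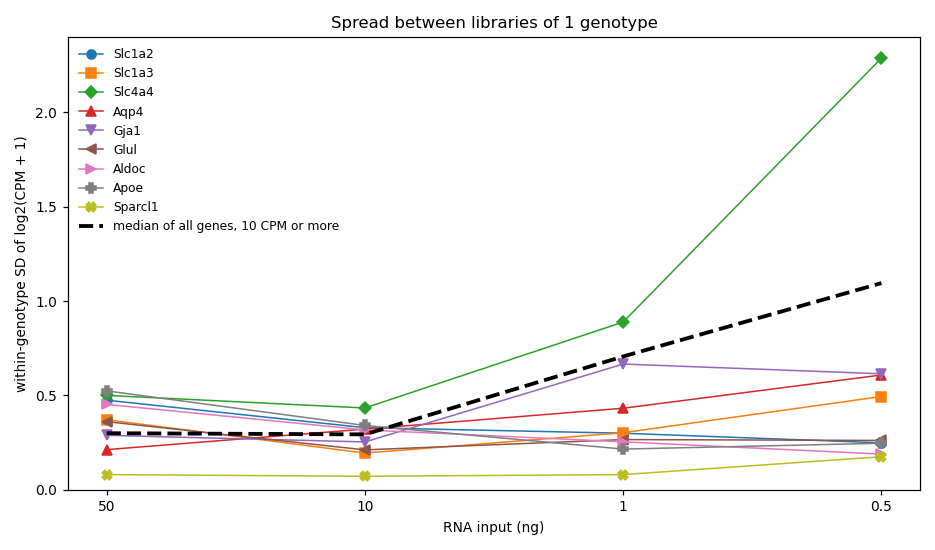
Within-genotype SD of log2(CPM + 1) (vertical axis, from 0) by RNA input for each of the 9 genes, with the median over all genes of at least 10 CPM as a dashed line. The dashed line climbs from 0.30 at 50 ng to 1.095 at 0.5 ng, Slc4a4 from 0.50 to 2.29, and Sparcl1 from 0.080 to 0.17.

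Together the 9 genes held a small share of each library, from 0.791 to 1.26% of counts, with Apoe as its largest part. In the 50 ng libraries it was 0.967, 0.884, 1.06 and 0.903% of counts in WT replicates 1 to 4 and 1.03, 1.06, 1.26 and 0.855% in the GFAP-IL6 replicates. The group means were 0.954% ± 0.0807 and 1.05% ± 0.168 (SD, n = 4 each), and the groups overlapped. At 0.5 ng the means were 0.852% ± 0.0572 in WT and 0.953% ± 0.123 in GFAP-IL6. Replicate 3 held the highest share of its genotype at 50, 10 and 1 ng in both genotypes.

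The wider set of astrocyte genes, 65 further genes in 5 lists by role, were tested beside the 9. None was called at any of the 4 inputs, where 4 of 65 passed an unadjusted p under 0.05 at 50 ng and 6 of 65 at 10 ng, beside 5.63 and 7.49% of all genes. Fewer were tested at the lower inputs. There 7 of 61 passed at 1 ng and 0 of 55 at 0.5 ng, beside 3.59 and 2.87% of all genes. Their median log2 fold change was 0.012 at 50 ng and 0.022 at 10 ng, against 0.28 and 0.28 for the 9 genes. Without GFAP-IL6 replicate 4 the medians were 0.034 and 0.054 for the 65 genes and 0.12 and 0.19 for the 9. In the fit of 50 and 10 ng together, where libraries of the same number may share RNA, 1 of 65 was called, beside 1.03% of all genes. This was Dio2, which activates thyroid hormone, at 0.94 (SE 0.20, adjusted p = 0.0114). Fitted at each input alone, Dio2 had an adjusted p of 0.617 at 50 ng and 0.0868 at 10 ng. Without both libraries of GFAP-IL6 replicate 4 the joint fit gave 0.61 for Dio2, which was not called (adjusted p = 0.132).

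Among genes of the same pathways as the 9, 2 were called. In the glutamate and glutamine list, 1 of 10 tested genes was called at 50 ng and at 10 ng: Slc38a5, a glutamine transporter, had at 50 ng a mean of 4.90 ± 0.337 CPM in WT and, in GFAP-IL6, of 18.7 ± 11.4 CPM (SD, n = 4). It rose by a log2 fold change of 1.91 at 50 ng (SE 0.40, adjusted p = 0.0359) and 1.97 at 10 ng (SE 0.36, adjusted p = 0.00194), and at both inputs each of the 4 GFAP-IL6 libraries exceeded the highest WT library. In the lipoprotein list 1 of 13 was called at 10 ng, the microglial receptor Trem2, at 1.02 (SE 0.20, adjusted p = 0.00771). Trem2 is also one of the microglia markers. Without GFAP-IL6 replicate 4 the estimate for Slc38a5 was 2.30 at 50 ng (SE 0.27, adjusted p = 4.42e-06) and that for Trem2 1.11 at 10 ng (SE 0.20, adjusted p = 0.00485).

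In the other pathway lists no gene was called at 50 or 10 ng. Of the 15 glycolytic genes 13 had estimates below 0 at 50 ng and 13 at 10 ng, with medians of -0.16 and -0.15 and none called. Over all tested genes 49.6% had estimates above 0 at 50 ng and 50.4% at 10 ng. These values include GFAP-IL6 replicate 4, and the list was not summarised without that library. Gapdh was the farthest at 50 ng at -0.32 (SE 0.19, adjusted p = 0.835), and Ldhb was at -0.30 (SE 0.20, adjusted p = 0.835). The gap junction list had 0 of 6 called at 50 ng, with Gjc3 at 0.89 (SE 0.32, adjusted p = 0.658). The bicarbonate list had 0 of 9, with the carbonic anhydrase Car4 at -0.40 (SE 0.22, adjusted p = 0.835).

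Reactive astrocyte markers, 9 genes including Gfap, Vim and Serpina3n, summed to between 40.7 and 73.7 CPM in WT and to 103, 112, 138 and 86.6 CPM in GFAP-IL6 at 50 ng, so that the groups did not overlap. Of the 5 tested, Gfap was called, with a log2 fold change of 2.20 at 50 ng (SE 0.27, adjusted p = 0.000112) and 2.49 at 10 ng (SE 0.28, adjusted p = 4.00e-07). Endothelial markers summed to between 174 and 228 CPM in WT and between 213 and 310.1 CPM in GFAP-IL6, with none called. Markers of pericytes and smooth muscle, 4 genes, summed to between 108 and 122 CPM in WT and between 147 and 173 CPM in GFAP-IL6 at 50 ng, and to between 109 and 118 and between 138 and 150.3 CPM at 10 ng, so that the groups did not overlap at either input, again with none called. The part of these vessel cells in the values of the 9 genes was not tested.

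The genes outside the set whose pattern over the 16 libraries of 50 and 10 ng was most like the mean of the 9 genes were Tmod3, Ier3 and Dnajc1, each with a Spearman rho of 0.862, Txndc16 with 0.859 and Plxnb2 with 0.847, among 8726 genes. Without GFAP-IL6 replicate 4, over 14 libraries, Prpf40b led with 0.895, and of the 5 first named Txndc16 (0.877) and Dnajc1 (0.873) stayed among the highest 5. Within the set, Glul followed the mean most closely (0.841) and Aldoc (0.115) and Gja1 (0.118) least. These are descriptions over libraries that may share animals and that differ in depth, and the highest of many genes are high partly by selection.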

How the data were processed

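Counts of 32 libraries were analysed, 4 of each genotype and RNA input, with groups and replicate numbers from the sample labels. The deposited values were raw read counts per gene, which the authors made by trimming poly(A) stretches of at least 12 bases after position 25, aligning with STAR 2.4 and counting uniquely aligned reads over GENCODE genes with featureCounts (Subread). Whether counting used the strand of the reads is not given in the sources used here. The study aligned mouse reads to mm10, which is GRCm38, and GRCm38 coordinates were used. The authors used DESeq2 for differential expression. The libraries carried no molecular identifiers, so floors of 3 counts cover counting error only. Counts of replicate libraries differed beyond sampling noise (chi-square per degree of freedom of at least 2.15), so each was counted as its own sample.

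CPM values were computed from the counts without length correction, and log values used log2(CPM + 1). Genotypes were compared within each input with edgeR 4.0.16 in R 4.3.3 (TMM, filterByExpr, quasi-likelihood test), and the interaction and the input effect were tested over all 32 libraries. Standard errors came from the F statistic. The fitting code was tested on simulated counts. The 9 genes, the gene lists and the markers were chosen with earlier results of these data known. Named genes were the 9 genes, Il6 and Gfap, the list genes called at 50 or 10 ng or otherwise among the largest by log2 fold change at 50 ng, and the 5 genes most like the mean of the 9. Alternatives were DESeq2 1.42.0, its size factors, no filter on low counts, a replicate block, thinning to the lowest total, a single fit, limma 3.58.1 voom weights, a fold threshold and leaving out each library. In fits over all inputs, each replicate number of a genotype was left out at all 4 inputs at once. The length trend as an offset, leaving out both libraries of GFAP-IL6 replicate 4 and the block on summed libraries were added after seeing the data. The remaining steps ran in Python 3.11.15 with pandas 2.3.3, numpy 2.4.6, scipy 1.17.1 and, for plots, matplotlib 3.10.9.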

Additional observations from a re-analysis of the deposited data

Results flagged for a closer look

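In 7 instances over 72 groups of 4 libraries, a single library lay far from the other 3, with a gap to its neighbour that, set against the range of the group, passed the 95% critical value of Dixon. Chance gives this in about 5% of groups. In 5 of the 7 the library was GFAP-IL6 replicate 4. It was the highest for Slc1a2 at 50 ng (2602 CPM against 965 to 1202) and at 0.5 ng (1260 CPM against 801 to 844). At 50 ng it was also the highest for Slc1a3 (489.6 CPM against 239.8 to 251) and for Glul (585 CPM against 282 to 334). At 1 ng it was the lowest for Aldoc (999.2 CPM against 1368 to 1439). The others were WT replicate 4 at 50 ng, the highest for Slc4a4 (54.4 CPM against 38.7 to 40.6) and for Sparcl1 (1890 CPM against 1804 to 1811). The Sparcl1 gap is small in size, because the other WT libraries were nearly equal.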

How the results depend on the processing

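Of 164 recomputed counts of called genes among the 9, 157 stayed at 0 and 7 came to 1. A replicate block was also fitted. For the genotype tests it grouped WT and GFAP-IL6 libraries of equal number, which are different animals. For the input effects it grouped libraries of the same genotype and number, which the labels do not say share an animal. Deviations of same-numbered libraries correlated above 0.1 in 16 of 48 comparisons across inputs and in 6 of 16 between genotypes. Between 50 and 10 ng within a genotype they ran from 0.041 (GFAP-IL6 replicate 2) to 0.70 (GFAP-IL6 replicate 4). Choroid plexus markers were high in WT replicate 3 at all 4 inputs. With the block across genotypes 1 of the 9, Slc1a2, was called by genotype at 10 ng (adjusted p = 0.0349, 0.639% of all genes called). It was also called in the summed libraries of 50 and 10 ng (adjusted p = 0.0367, 1.51%). With the block on genotype and number 1 of the 9, again Slc1a2, was called for the input effect of 1 against 50 ng (adjusted p = 0.0250, 1.36%). The same gene was called for that of 0.5 against 50 ng (adjusted p = 0.00886, 8.7%). Over all genes the block across genotypes gave 39, 77, 7 and 1 genotype calls from the highest to the lowest input, where the fit without it gave 33, 40, 4 and 1. The count was 1 (Slc1a3) at 0.5 ng in the single fit of all 32 libraries, which called 5.38% of all genes, and 1 (Slc1a2) at 0.5 against 50 ng with no filter on low counts (6.6%). For input effects and differences between inputs, a replicate number of a genotype was left out at all 4 inputs at once. This gave counts of 0 to 1 for the effect of 0.5 against 50 ng, with 1 (Aldoc, beside 6.99% of all genes) without GFAP-IL6 replicate 4. In the other comparisons leaving out a library or a replicate number gave 0.

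The log2 fold changes kept their direction in 272 of 287 recomputations with all libraries and in 259 of 288 that left out a library. Those that turned with all libraries kept were Gja1 (-0.0019 with the replicate block and -0.043 thinned at 50 ng, -0.095 with voom weights at 1 ng, -0.036 with the length offset at 0.5 ng), Apoe (-0.076 at 50 ng and -0.071 at 10 ng with voom weights), Aldoc (-0.092 at 1 ng and -0.071 at 0.5 ng with voom weights) and Sparcl1 (0.016, 0.014 and 0.025 thinned at 50, 10 and 0.5 ng, 0.023 and 0.027 with the length offset at 10 and 0.5 ng, 0.011 with DESeq2 size factors and 0.0084 with DESeq2 at 0.5 ng). Leaving out a library gave ranges through 0 for Slc4a4 (-0.20 to 0.51 at 50 ng), Gja1 (-0.062 to 0.21, -0.028 to 0.18, -0.018 to 0.52 and -0.25 to 0.41 at 50, 10, 1 and 0.5 ng), Aldoc (-0.22 to 0.12, -0.23 to 0.034, -0.066 to 0.12 and -0.035 to 0.10), Apoe (-0.084 to 0.36 at 50 ng and -0.084 to 0.24 at 10 ng), Sparcl1 (-0.073 to 0.0028 at 10 ng and -0.061 to 0.076 at 0.5 ng), Slc1a2 (-0.088 to 0.30 at 1 ng and -0.0083 to 0.27 at 0.5 ng) and Glul (-0.0016 to 0.16 at 1 ng). The cause was not tested. Without mitochondrially encoded genes in the total, the share of the 9 genes was 1.13, 1.09, 1.01 and 1.01% in WT and 1.25, 1.19, 1.17 and 1.12% in GFAP-IL6 at 50, 10, 1 and 0.5 ng. Counts of 0 to 184 limit Slc4a4 at 0.5 ng.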
